A study of Sus scrofa with 13 samples.

Results

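Small leucine-rich proteoglycans (SLRPs) are secreted proteins whose repeated leucine-rich segments bind collagen fibrils, and most carry chondroitin, dermatan or keratan sulphate chains. In skeletal muscle they are known from the connective tissue around fibres and bundles, where they set the spacing and thickness of fibrils, and decorin and biglycan also bind growth factors such as TGF-beta. Tenomodulin is a transmembrane glycoprotein of tendon and ligament cells and is used as a marker of mature tendon cells. The genes described are the 8 SLRP genes DCN (decorin), BGN (biglycan), ASPN (asporin), LUM (lumican), FMOD (fibromodulin), PRELP, OGN (osteoglycin) and CHAD (chondroadherin), together with TNMD (tenomodulin), 9 of the 25322 genes in the count tables. They were chosen by symbol, and all 9 were found in the tables of both breeds. TNMD was added because of its measured level, which is near 0 in Hampshire pigs with low loin weight, so its values in that group describe the choice and were not tested.

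RNA was sequenced from the longissimus lumborum (loin) muscle of 13 unrelated female pigs aged 6 months, 6 of the Hampshire and 7 of the Pietrain breed. Within each breed the pigs came from a larger population and stood at the extremes of loin weight: 3 Hampshire pigs with high loin weight (numbers 8, 9 and 10) and 3 with low (1, 2 and 3), and 4 Pietrain pigs with high loin weight (1, 2, 6 and 7) and 3 with low (3, 5 and 8). Each pig is its own biological sample, the pigs were slaughtered at a set weight, and the carcass measures behind each pig's group were not used here. Counts per pig summed to between 11312755 and 20134612. The muscle markers ACTA1, CKM and DES together held 45546 to 205570 CPM (counts per 1000000 counts of a library) per pig. The cartilage markers ACAN, COL2A1, COL9A1 and MATN3 were under 1 CPM in all 13 pigs. SOX9, the other cartilage marker looked for, measured 0.703 to 1.27 CPM in Hampshire high and 0.490 to 1.26 CPM in Hampshire low. It measured 0.579 to 3.89 CPM in Pietrain high and 0.470 to 1.81 CPM in Pietrain low. The counts of each breed form a table of their own, so breed cannot be told apart from anything else that differed between the tables.

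Levels are given in CPM after scaling of all 13 pigs together, and the sentence for a group lists its pigs in the order of the numbers above. A CPM value is not divided by transcript length, so levels are compared between groups for a gene and not between genes. In bulk muscle RNA, fewer cells of a type and less RNA per cell cannot be told apart. A gene was called differentially expressed (DE) at an adjusted p under 0.05 (edgeR's quasi-likelihood test, Benjamini-Hochberg over all genes tested) with a fold change of at least 1.2.

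**Figure D1:**
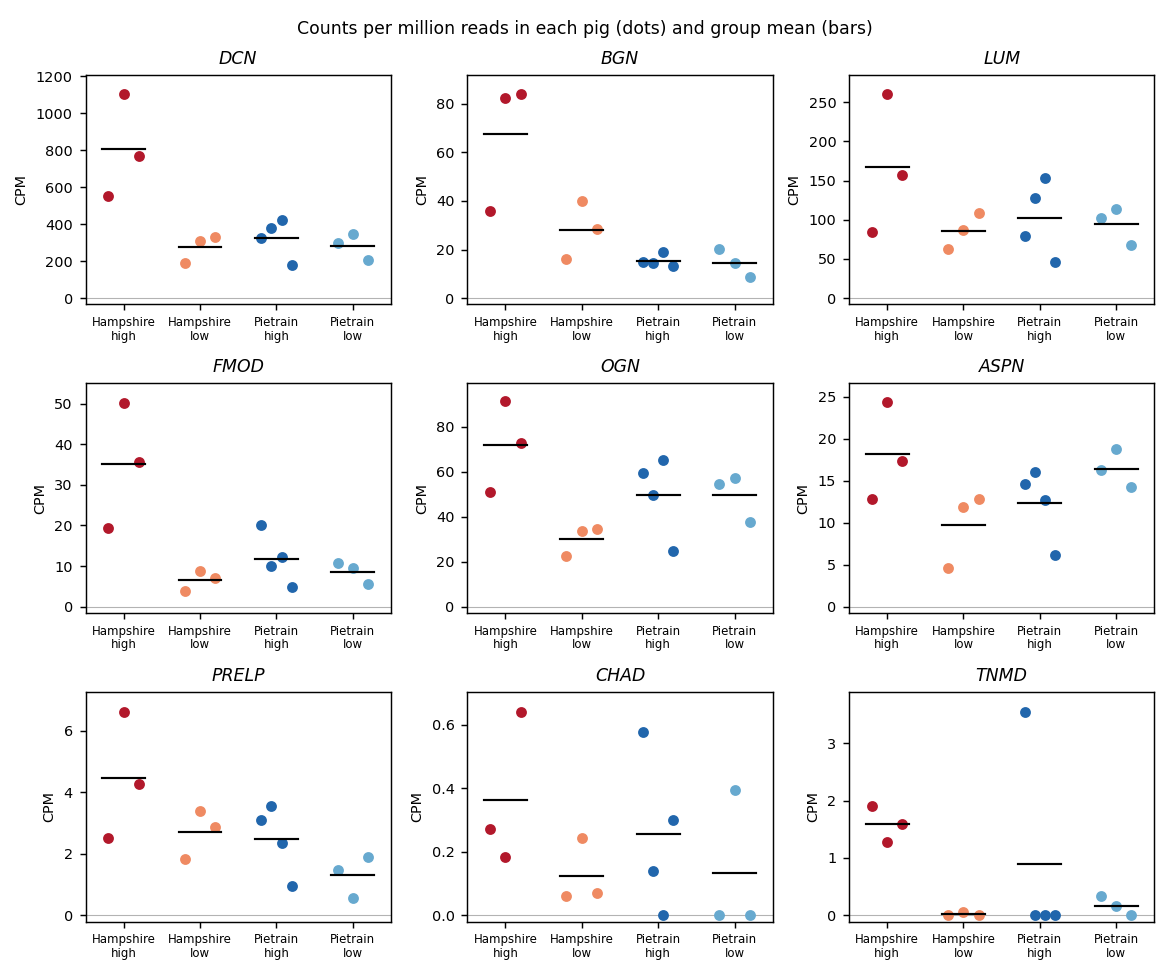
Level of each of the 9 genes in CPM (linear axis from 0) in the 4 groups, with a dot for each pig and a bar at the group mean. DCN, FMOD and OGN sat higher in all 3 Hampshire pigs with high loin weight than in any of the 3 with low, and TNMD in Pietrain pigs with high loin weight rested on 1 pig at 3.54 CPM.

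The first comparison asked how the genes differed with loin weight among Hampshire pigs. DCN, BGN, FMOD and OGN rose in the pigs with high loin weight, from 2.37-fold for OGN to 5.34-fold for FMOD, and no tested SLRP gene fell. LUM, ASPN and PRELP had positive differences that did not pass, and CHAD was too low to test. Thus 4 of the 7 tested SLRP genes were called, all higher, where 12.0% of all 12228 genes tested were called higher and 26.6% were called in either direction. The median log2 difference was 1.25 over the 7 SLRP genes and 0.03 over all genes tested. The groups did not overlap, with the higher values at high loin weight, for 4 of the 7 genes (DCN, FMOD, OGN and ASPN), against 22.4% of all genes.

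Among the class I genes, DCN (ENSSSCG00000000915, Sscrofa10.2 chr5:96109666-96143719) encodes decorin, which coats collagen fibrils and binds TGF-beta and myostatin. Its level was 553, 1106 and 767 CPM in the Hampshire pigs with high loin weight, against 192, 308 and 329 CPM in those with low. The lowest pig with high loin weight was above the highest with low, and the log2 difference was 1.55 ± 0.30 (SE, n = 3 and 3, adjusted p = 0.0082, edgeR). BGN (ENSSSCG00000012766, chrX:141845599-141858874) encodes biglycan, which also binds the dystroglycan and sarcoglycan complex of the muscle membrane. It measured 35.9, 82.6 and 83.9 CPM at high and 15.9, 39.9 and 28.4 CPM at low loin weight. Pig 8 of the high group lay below pig 2 of the low group, so the ranges overlapped, and the log2 difference was 1.27 ± 0.39 (adjusted p = 0.0417, edgeR). The BGN call was lost when any of 4 pigs was left out (high 9 or 10, low 1 or 3), with log2 differences from 0.94 to 1.27 and adjusted p between 0.115 and 0.133 (edgeR), and after a gene length trend was removed (1.17, adjusted p = 0.0534, edgeR). ASPN (ENSSSCG00000008072, chr3:43350287-43377535) encodes asporin, a collagen-binding relative of decorin with a stretch of aspartate residues. It measured 12.9, 24.3 and 17.4 CPM at high and 4.59, 11.9 and 12.8 CPM at low loin weight. The groups came close without overlapping, and the log2 difference of 0.90 ± 0.37 did not pass (adjusted p = 0.101, edgeR). It was 0.51 without low pig 1 and did not pass with any 1 pig left out.

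Among the class II genes, many of whose proteins carry keratan sulphate chains or sulphated tyrosines, FMOD had the largest fold change of the 7 tested. Fibromodulin binds the same stretch of collagen I as lumican and guides fibril assembly in tendon. FMOD (ENSSSCG00000015270, chr9:70356564-70367608) measured 19.5, 50.1 and 35.5 CPM at high loin weight and 3.86, 8.84 and 6.93 CPM at low loin weight in Hampshire. Each pig of the high group lay above the highest pig of the low group, and the log2 difference was 2.42 ± 0.39 (adjusted p = 0.0049, edgeR). LUM (ENSSSCG00000000916, chr5:96175704-96184752), which encodes lumican, lies 31984 bases from DCN. It measured 83.7, 261 and 157 CPM at high and 63.1, 87.4 and 108 CPM at low loin weight. Pig 8 of the high group lay inside the range of the low group, and the log2 difference of 0.96 ± 0.37 did not pass (adjusted p = 0.0862, edgeR). Without that pig LUM passed (1.24, adjusted p = 0.0203, edgeR), and without high pig 9 the difference was 0.46 (adjusted p = 0.341, edgeR). PRELP (ENSSSCG00000015271) encodes a protein with a basic end that binds heparan sulphate and collagen. It measured 2.52, 6.63 and 4.28 CPM at high and 1.84, 3.40 and 2.87 CPM at low loin weight. The ranges overlapped, with a log2 difference of 0.71 ± 0.39 (adjusted p = 0.201, edgeR), which was 0.30 without high pig 9.

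The class III gene OGN (ENSSSCG00000030143, chr3:43250505-43259402), which lies 90884 bases from ASPN, encodes osteoglycin, also known as mimecan, found in bone and connective tissue. It measured 51.1, 91.4 and 72.8 CPM at high and 22.8, 33.5 and 34.4 CPM at low loin weight in Hampshire pigs. The groups were well apart, and the log2 difference was 1.25 ± 0.25 (adjusted p = 0.0094, edgeR). CHAD (ENSSSCG00000017569) is the class IV gene, and its protein is known from cartilage, where it binds collagen and integrins. It was covered by 4, 2 and 10 reads in the high and by 1, 5 and 1 reads in the low Hampshire group. It had 8, 2, 0 and 6 reads in the Pietrain pigs with high and 0, 5 and 0 in those with low loin weight. CHAD failed the filter on low counts in every main edgeR fit, and its highest level was 0.639 CPM, so no difference is given for it at this depth.

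Within a group the lowest pig was mostly the same across the SLRP genes, while the highest pig varied. Pig 8 had the lowest level of the 3 Hampshire pigs with high loin weight for 7 of the 8 SLRP genes, and pig 1 was the lowest of the Hampshire pigs with low loin weight for 8 of 8. In Pietrain, pig 7 was the lowest of the high group for 7 of 8 genes and pig 8 the lowest of the low group for 6 of 8. CHAD hardly orders the pigs: Hampshire low pigs 1 and 3 tied at 1 read, and Pietrain low pigs 3 and 8 tied at 0. The highest level was in Hampshire high pig 9 for 6 of the 8 genes, in Hampshire low pigs 2 and 3 for 4 each, in Pietrain high pig 6 for 4 and in Pietrain low pig 5 for 5. The sum of the 8 genes ran from 759 to 1622 CPM in the high and from 304 to 523 CPM in the low Hampshire group. It ran from 277 to 689 CPM in Pietrain pigs with high and from 340 to 559 CPM in those with low loin weight, so every Hampshire pig with high loin weight exceeded the other 10 pigs.

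The same comparison was made in the Pietrain breed, where no SLRP gene passed. The 7 genes tested by edgeR gave 0 calls, and 0.00% of the 12065 genes tested were called. At an unadjusted p under 0.05 the count was 0 of 7, against 3.30% of all genes. DESeq2 called 0 of 8 members with an adjusted p, against 0.00550% of its genes. The ranges of the groups overlapped for all 7 tested SLRP genes, where 4.60% of all genes did not overlap in either direction.

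DCN measured 324, 378, 424 and 181 CPM in Pietrain pigs with high and 300, 344 and 205 CPM in those with low loin weight. The pigs with low loin weight lay inside the range of the high group, and the log2 difference was 0.24 ± 0.29 (n = 4 and 3, adjusted p = 0.94, edgeR). FMOD measured 20.1, 10.1, 12.2 and 4.90 CPM at high and 10.7, 9.57 and 5.58 CPM at low loin weight. Pig 1 of the high group was the highest and pig 7 the lowest of all 7 pigs, and the log2 difference was 0.48 ± 0.42 (adjusted p = 0.939, edgeR). OGN measured 59.7, 49.6, 65.5 and 24.6 CPM at high and 54.5, 57.3 and 37.6 CPM at low loin weight, with group means that were both 49.8 CPM and a log2 difference of 0.03 ± 0.30. BGN, LUM and ASPN differed by 0.13 ± 0.29, 0.14 ± 0.36 and -0.38 ± 0.30 on the log2 scale. PRELP had the widest error, 0.93 ± 0.55, with 3.11, 3.56, 2.33 and 0.949 CPM at high and 1.48, 0.554 and 1.88 CPM at low loin weight. The SLRP median was a log2 difference of 0.14, and the median of all genes tested was 0.02. These errors leave room for differences of either sign in most of the genes.

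The difference between the breeds in the effect of loin weight was tested itself, over all 13 pigs. Of the 7 tested SLRP genes, 6 had a larger effect in Hampshire, but none passed, where 5.90% of 12831 genes were called in either direction. FMOD came nearest, with a difference of the log2 effects of 1.96 ± 0.63 (adjusted p = 0.085, edgeR), followed by DCN with 1.34 ± 0.45 (adjusted p = 0.0975, edgeR). OGN, ASPN and BGN differed by 1.25 ± 0.44, 1.31 ± 0.53 and 1.16 ± 0.52, LUM by 0.85 ± 0.59 and PRELP by -0.19 ± 0.71. At an unadjusted p under 0.05 the count was 5 of 7, against 22.1% of all genes. DESeq2 called 2 of 7 (DCN and FMOD), against 9.38% of its genes. Without Pietrain pig 1 of the high group, FMOD passed in edgeR as well (2.29, adjusted p = 0.0478, edgeR). A call in Hampshire and none in Pietrain therefore did not amount to a called difference between the breeds in the main test. On simulated data this test called 54 of 200 genes changed 3-fold, so a missing call does not show equal effects.

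**Figure D2:**
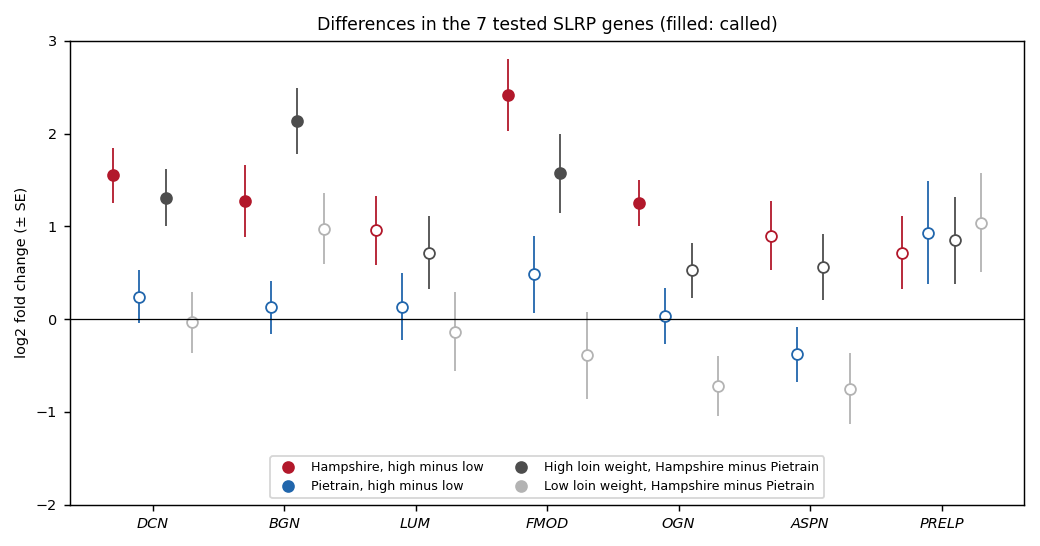
Log2 fold change (y axis, ± SE) of the 7 tested SLRP genes in 4 comparisons, by colour; filled points passed the test and open points did not. Filled points are DCN, BGN, FMOD and OGN between loin weight groups in Hampshire, and DCN, BGN and FMOD between breeds at high loin weight.

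Between the breeds at high loin weight, DCN, BGN and FMOD were higher in Hampshire. This comparison uses the same Hampshire pigs with high loin weight as the one above. The 3 called genes were among the 7 tested SLRP genes, where 22.6% of the 12831 genes tested were called higher in Hampshire and 46.8% in either direction. TNMD was fitted as well and is described below. BGN, at 35.9 to 83.9 CPM in the Hampshire pigs, measured 15.0, 14.3, 19.1 and 13.1 CPM in the Pietrain pigs with high loin weight. The lowest Hampshire pig was above the highest Pietrain pig, and the log2 difference of 2.13 ± 0.35 was the largest of the 7 (adjusted p = 0.000345, edgeR). DCN was apart in the same way, with a log2 difference of 1.31 ± 0.31 (adjusted p = 0.00353, edgeR). DCN and BGN were the 2 of 7 genes whose groups did not overlap, against 24.0% of genes that were apart and higher in Hampshire. FMOD overlapped, because Pietrain pig 1 at 20.1 CPM exceeded Hampshire pig 8 at 19.5 CPM, and differed by 1.57 ± 0.42 (adjusted p = 0.00789, edgeR). The FMOD call was lost without Hampshire pig 9 (1.18, adjusted p = 0.0567, edgeR). LUM, OGN, ASPN and PRELP differed by 0.72 ± 0.40, 0.53 ± 0.30, 0.56 ± 0.36 and 0.85 ± 0.47, with adjusted p from 0.152 to 0.212 (edgeR).

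Between the breeds at low loin weight, none of the 7 tested SLRP genes passed, where 17.9% of genes were called in either direction. At an unadjusted p under 0.05 the count was 2 of 7 (BGN and OGN), against 35.9% of all genes, and DESeq2 called 1 of 7 (BGN), against 26.4% of its genes. BGN was 28.1 ± 12.0 CPM in Hampshire and 14.3 ± 5.75 CPM in Pietrain (SD, n = 3 and 3), a log2 difference of 0.97 ± 0.38 (adjusted p = 0.0865, edgeR). It passed in edgeR without Hampshire pig 1 (adjusted p = 0.046, edgeR) or without Pietrain pig 3 (adjusted p = 0.0426, edgeR). OGN was lower in each of the 3 Hampshire pigs (22.8 to 34.4 CPM) than in any of the 3 Pietrain pigs (37.6 to 57.3 CPM), with a log2 difference of -0.72 ± 0.32 (adjusted p = 0.128, edgeR). ASPN was apart in the same direction, at -0.75 ± 0.39 (adjusted p = 0.178, edgeR). DCN, LUM and FMOD differed by -0.03 ± 0.33, -0.14 ± 0.43 and -0.39 ± 0.47, and PRELP by 1.04 ± 0.53.

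Ordered by group mean, Hampshire pigs with high loin weight stood first for the 7 tested SLRP genes. The share of all genes with Hampshire high first was not counted. This group was also first for CHAD, on 2 to 10 reads per pig, and for TNMD, which was added for its level in Hampshire low. For DCN the order was Hampshire high (809 ± 279 CPM, SD, n = 3), Pietrain high (327 ± 105, n = 4), Pietrain low (283 ± 71.4, n = 3) and Hampshire low (276 ± 74.2, n = 3). Only the first step of that order was free of overlap. For OGN, the last step, from Pietrain low (49.8 ± 10.7) to Hampshire low (30.2 ± 6.49), was free of overlap. For BGN the order was Hampshire high (67.4 ± 27.4), Hampshire low (28.1 ± 12.0), Pietrain high (15.4 ± 2.58) and Pietrain low (14.3 ± 5.75), with overlap between all neighbours. Neighbouring groups overlapped at every step for LUM, FMOD, ASPN, PRELP, CHAD and TNMD as well.

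The proportions among the SLRP reads also differed between groups. These are ratios of reads within a pig, so they do not depend on how pigs were scaled, and they were looked at after the levels were seen and not tested. DCN held 59.3% to 72.9% of the reads of the 8 SLRP genes in every pig. FMOD gave 3.52 to 4.63 reads per 100 DCN reads at high and 2.01 to 2.87 at low loin weight in Hampshire. LUM was apart the other way, with 15.1 to 23.6 reads per 100 DCN reads at high and 28.3 to 32.9 at low loin weight. The same held for OGN, with 8.26 to 9.49 at high and 10.5 to 11.9 at low, for ASPN, with 2.20 to 2.33 and 2.40 to 3.89, and for PRELP, with 0.456 to 0.600 and 0.872 to 1.10. All these ratios share the DCN reads, and DCN rose 2.93-fold in Hampshire, more than LUM, OGN, ASPN and PRELP (1.64- to 2.37-fold). The lower ratios are therefore not separate results. The share of other genes whose ratio to DCN was apart was not counted. In Pietrain pigs the ranges at high and low loin weight overlapped for FMOD, LUM, OGN and PRELP, and ASPN was lower at high (2.98 to 4.50) than at low loin weight (5.41 to 6.92). BGN gave 6.49 to 12.9 reads per 100 DCN reads over the 6 Hampshire pigs and 3.77 to 7.26 over the 7 Pietrain pigs.

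**Figure D3:**
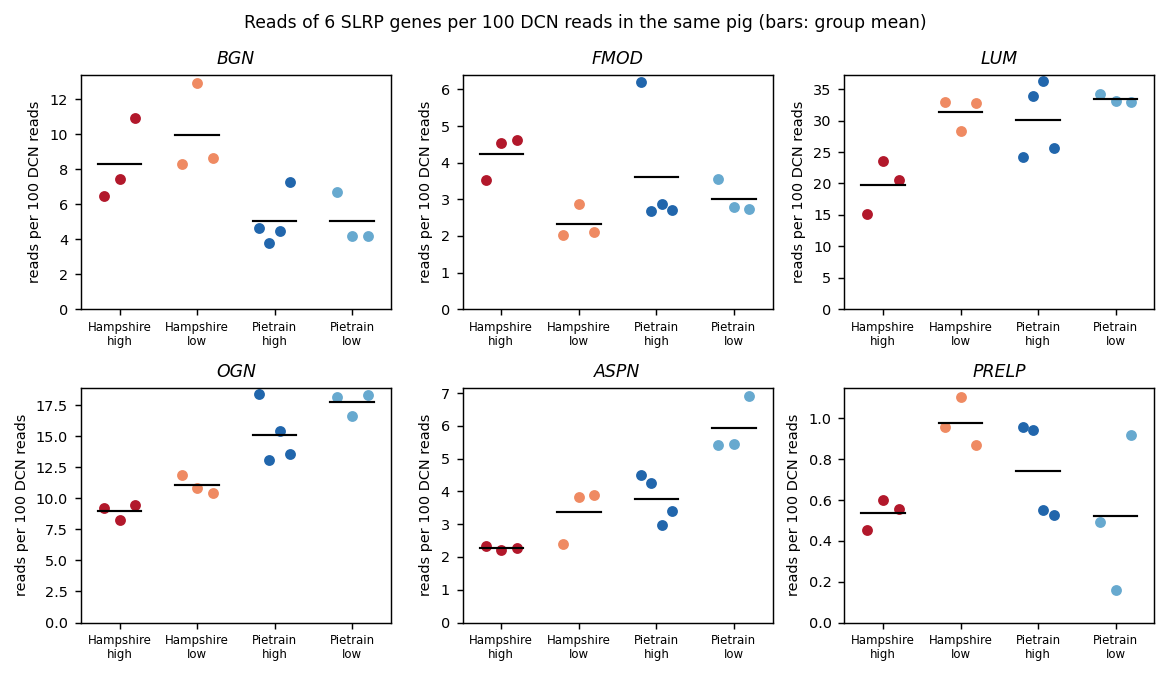
Reads of 6 SLRP genes per 100 DCN reads of the same pig (linear axes from 0) in the 4 groups, with a dot for each pig and a bar at the group mean. In Hampshire the FMOD ratio was higher, and the LUM, OGN, ASPN and PRELP ratios lower, in all 3 pigs with high loin weight than in any with low.

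TNMD (ENSSSCG00000012480) had 28, 14 and 25 reads in Hampshire pigs with high loin weight, which is 1.91, 1.27 and 1.60 CPM. The Hampshire pigs with low loin weight had 0, 1 and 0 reads. These are the values that chose the gene, so they are given as a description: 67 reads summed over 3 pigs against 1 read. In Pietrain pigs with high loin weight, pig 1 had 49 reads (3.54 CPM) and pigs 2, 6 and 7 had 0. A count of 0 allows levels of up to 0.149 to 0.232 CPM of the library totals in those 3 pigs, from a floor of 3 counts. The Pietrain pigs with low loin weight had 4, 2 and 0 reads. Pietrain pig 1 thus had a higher TNMD level than any Hampshire pig, and the other 6 Pietrain pigs had lower levels than any Hampshire pig with high loin weight.

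TNMD entered the fit between the breeds at high loin weight, where the rule used no value. The log2 difference was 0.88 ± 1.24 (adjusted p = 0.582, edgeR), which is given as a description. Without Pietrain pig 1 edgeR called TNMD, but the remaining 3 Pietrain pigs were all at 0 and the gene then entered the fit through Hampshire pigs with high loin weight, so the call followed from that choice and is not given as a test. TNMD failed the low-count filter in the Pietrain fit, so it had no edgeR test between loin weight groups there. It passed the filter over 13 pigs through the 3 Hampshire pigs with high loin weight and Pietrain pig 1. Its entry into the fit between breeds thus rested on a group being compared, and it is left out of the tested genes there.

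Of the 4 tendon cell markers matched, MKX and COMP were under 1 CPM in all 13 pigs, and THBS4 and CILP were measured. THBS4, which encodes a thrombospondin of tendon and muscle attachment, was at 13.4, 18.0 and 27.6 CPM in the high and 6.18, 14.0 and 10.5 CPM in the low Hampshire group. The log2 difference of THBS4 was 0.95 ± 0.34 (adjusted p = 0.0703, edgeR). CILP, which encodes a matrix protein of cartilage and other connective tissue, differed by 0.40 ± 0.33 between loin weight groups in Hampshire. At high loin weight CILP was higher in Hampshire than in Pietrain (1.53 ± 0.40, adjusted p = 0.00675, edgeR), where 22.6% of all genes were called higher. The breeds were also apart in CILP at low loin weight, with 85.1 to 209 CPM in Hampshire and 29.9 to 70.2 CPM in Pietrain. The summed level of the 4 markers was 164 to 259 CPM in Hampshire high, 95.6 to 223 in Hampshire low, 45.1 to 117 in Pietrain high and 37.3 to 74.8 in Pietrain low pigs. Looked at after its TNMD level was seen, Pietrain pig 1 had the highest level of its group for FMOD (20.1 CPM) and CHAD (0.579 CPM, 8 reads). It was highest for no other of the 8 SLRP genes. Among list genes it was also the highest for KERA (3.18 CPM), OMD (12.9 CPM), THBS4 (14.8 CPM), CILP (102 CPM) and COL11A1 (7.95 CPM). It was not the highest for COL1A2 (311 CPM against 534 in pig 6), COL3A1 (590 against 1151) or COL14A1 (33.1 against 42.7).

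Of the 10 further SLRP family genes looked for, 7 were tested in Hampshire. KERA, which encodes keratocan, measured 0.210 to 0.534 CPM at low and 1.97 to 3.39 CPM at high loin weight. It passed the filter through the high group and so had to differ, and it is left out of the counts. Of the other 6 genes, 2 rose with high loin weight and none fell, where 12.0% of all genes were called higher. PODN, which encodes podocan, rose by 1.13 ± 0.24 (adjusted p = 0.0114, edgeR) and OMD, which encodes osteomodulin, by 1.03 ± 0.30 (adjusted p = 0.0353, edgeR). At high loin weight PODN was higher in Hampshire than in Pietrain (1.31 ± 0.21, adjusted p = 0.000278, edgeR), where 22.6% of all genes were called higher. TSKU measured 1.91 to 3.45 CPM in the Hampshire and 0.279 to 0.795 CPM in the Pietrain pigs with high loin weight. It passed the filter through the Hampshire pigs, so its difference is not given as a test. CHADL, with 0.681 to 2.36 CPM in Hampshire and 0.259 to 0.699 CPM in Pietrain, was near the filter. EPYC, OPTC and NYX were under 1 CPM in all pigs. The median log2 difference of the list was 0.75 over the 7 tested genes in Hampshire, KERA included, and 0.35 over the 4 tested genes in Pietrain.

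The collagens that SLRPs bind or order had 3 of 11 tested genes higher at high loin weight in Hampshire and none lower, where 12.0% of all genes were called higher, with a median log2 difference of 1.11. COL1A2, a chain of collagen I, rose by 1.54 ± 0.46 (adjusted p = 0.0382, edgeR), from 146 to 427 CPM at low to 448 to 1290 CPM at high loin weight. COL3A1, the collagen of reticular fibrils, rose by 1.44 ± 0.42 (adjusted p = 0.0341, edgeR), and COL14A1, a collagen on the surface of fibrils, by 1.82 ± 0.52 (adjusted p = 0.0333, edgeR). At high loin weight 7 of 11 were higher in Hampshire than in Pietrain and none lower, where 22.6% of all genes were called higher, led by COL6A2, a chain of the collagen VI around muscle fibres (2.06 ± 0.40, adjusted p = 0.00109, edgeR). In Pietrain the median of the list was 0.52. In the list of tendon and tendon cell genes, COL1A2 and COL14A1 were the 2 of 8 tested genes that rose in Hampshire with KERA left out, against the same 12.0%, and none fell. These are the collagens already counted above.

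Of 20 tested enzymes that build glycosaminoglycan chains, 2 were higher and 2 lower at high loin weight in Hampshire, no larger a share than the 26.6% of all genes called in either direction, with a median log2 difference of 0.31. CHPF, a chondroitin polymerising factor, rose by 0.75 ± 0.20 (adjusted p = 0.0257, edgeR), and B3GAT3, which adds the last sugar of the linker between core protein and chain, by 0.62 ± 0.17 (adjusted p = 0.0324, edgeR). CSGALNACT2, which starts or extends chondroitin chains, fell by 0.98 (SE 0.20, adjusted p = 0.00965, edgeR) and FAM20B, a kinase acting on the same linker, fell by 0.70 (SE 0.22, adjusted p = 0.0447, edgeR). FAM20B lies outside the rule for named genes and was named after its value was seen. At high loin weight 6 of the 20 were higher in Hampshire than in Pietrain and 2 lower, where 46.8% of all genes were called in either direction, among them CHPF (1.50 ± 0.33) and CSGALNACT2 (-1.50 ± 0.21).

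Among the TGF-beta ligands, latent binding proteins and receptors, 2 of 12 tested genes rose and 1 fell in Hampshire, a share near the 26.6% of all genes, with a median of 0.08. LTBP3 and LTBP1, which hold latent TGF-beta in the matrix, rose by 1.16 ± 0.31 and 0.82 ± 0.25 (adjusted p = 0.0274 and 0.0433, edgeR). TGFB2, a ligand, fell by 0.74 (SE 0.22, adjusted p = 0.0355, edgeR). At high loin weight 2 of the 12 were higher in Hampshire than in Pietrain and 3 were lower. That was no larger a share than the 46.8% of all genes called in either direction. LTBP3 (1.96 ± 0.35) and TGFB1 (1.50 ± 0.30) were the 2 higher, and the receptor gene TGFBR1 (-1.06 ± 0.26) was among the lower. Their adjusted p were 0.000583, 0.00124 and 0.00451 (edgeR).

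Of 10 tested receptors and binding partners of decorin or biglycan, 1 rose and 1 fell in Hampshire, no larger a share than the 26.6% of all genes. SGCA, a sarcoglycan of the complex that biglycan binds, measured 218, 238 and 246 CPM at high and 94.3, 122 and 104 CPM at low loin weight. All 3 pigs of the high group stood above the low group, with a log2 difference of 1.13 ± 0.16 (adjusted p = 0.00344, edgeR). DAG1, which encodes dystroglycan of the same complex, fell by 0.95 (SE 0.16, adjusted p = 0.00592, edgeR). At high loin weight 2 of the 10 were higher in Hampshire than in Pietrain and 1 was lower, no larger a share than the 46.8% of all genes. SGCA (2.08 ± 0.19, adjusted p = 5.91e-06, edgeR) and CD44 (1.2 ± 0.37, adjusted p = 0.0168, edgeR) were higher. MET, whose symbol matched more than 1 identifier, was lower (-0.67 ± 0.24, adjusted p = 0.0315, edgeR). SGCA was also apart between the breeds at low loin weight, with 47.0 to 73.6 CPM in Pietrain. Of 6 tested proteinases that cut SLRPs, the smallest p in Hampshire was that of MMP2, a gelatinase, whose log2 difference of 1.04 ± 0.38 did not pass (adjusted p = 0.0727, edgeR). At high loin weight 4 of the 6 were higher in Hampshire than in Pietrain, where 22.6% of all genes were called higher. They included BMP1, which removes the propeptide of biglycan (1.12 ± 0.25, adjusted p = 0.00273, edgeR), and MMP2 (1.57 ± 0.38, adjusted p = 0.00424, edgeR). Between the breeds at low loin weight 0 of the 6 were called, where 17.9% of all genes were called in either direction. The median log2 difference of the 6 was 0.85 there and 1.08 at high loin weight.

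Some markers of other cell and fibre types also differed between the loin weight groups in Hampshire pigs. Of 8 fibroblast markers, 5 rose with high loin weight in Hampshire and none fell, where 12.0% of all genes were called higher and 26.6% in either direction, led by MFAP5 (2.11 ± 0.38, adjusted p = 0.00699, edgeR), which encodes a microfibril protein. Their summed level was 441 to 1170 CPM in the high and 200 to 333 CPM in the low Hampshire group, without overlap, and 205 to 303 and 219 to 266 CPM in Pietrain pigs with high and low. Of 6 macrophage markers, 3 rose (summed 41.7 to 82.0 against 21.8 to 33.7 CPM), and of 7 mural cell markers, 2 rose (227 to 302 against 150 to 205 CPM). RGS5, the mural marker with the highest mean CPM, went the other way without a call. It measured 41.0 to 46.9 CPM at high and 52.0 to 73.3 CPM at low loin weight, without overlap. All 5 slow fibre markers rose in Hampshire (11689 to 17788 against 2832 to 6602 CPM), and of 2 fast fibre markers MYH1 fell by 1.25 (SE 0.37, adjusted p = 0.039, edgeR). Of 3 adipocyte markers, CIDEC rose (2.20 ± 0.64) and PLIN4 fell by 1.08 (SE 0.19). In Hampshire the count of calls was 1 of 3 for skeletal muscle markers, and 0 of 3 for endothelial, 0 of 2 for Schwann cell, 0 of 1 for satellite cell, 0 of 1 for chondrocyte, 0 of 2 for tendon cell and 0 of 3 for blood markers. In Pietrain edgeR called no gene of the whole table between loin weight groups, and so none of any list. The part of these cell and fibre types in the SLRP differences was not tested.

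**Figure D4:**
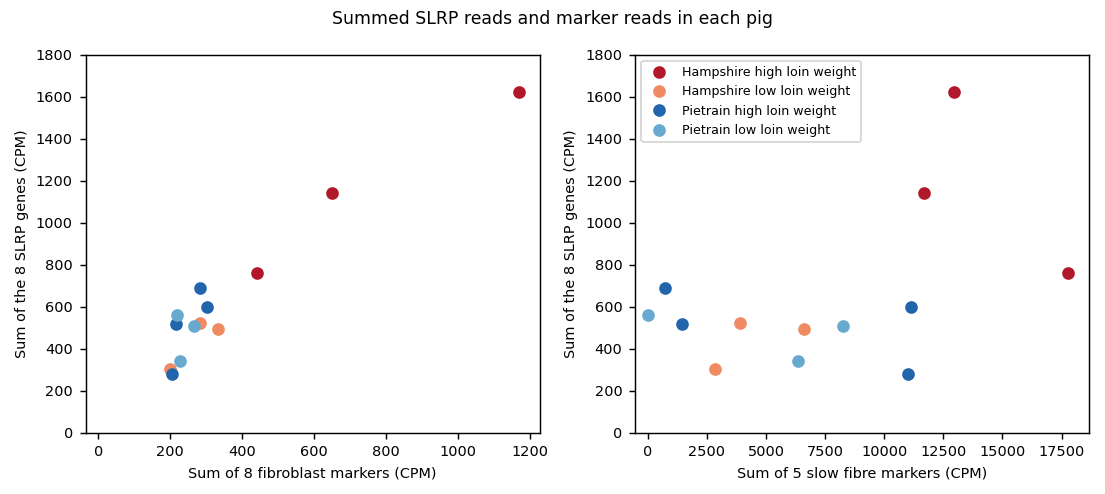
Summed CPM of the 8 SLRP genes (y axis) against the summed CPM of 8 fibroblast markers (left) and 5 slow fibre markers (right), with a dot for each of the 13 pigs coloured by group; the 3 Hampshire pigs with high loin weight had the highest sums of SLRP and fibroblast genes. The 7 Pietrain pigs had slow fibre sums from 27.7 to 11150 CPM and SLRP sums from 277 to 689 CPM.

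Deviations of log2 CPM from the group means were correlated over the 13 pigs, as a description. The pigs of a group share a mean of 0 by this construction, and the values of a pig share its library and scaling. Over the 21 pairs of the 7 SLRP genes kept by the filter, Pearson's r ran from 0.34 to 0.96 with a median of 0.73. The neighbours DCN and LUM had the highest value (r = 0.96, Spearman's rho = 0.95, and r = 0.93 without the 2 pigs farthest in DCN), followed by DCN and OGN, which lie on different chromosomes (r = 0.95, rho = 0.90, and 0.91). PRELP was the least alike, with r from 0.34 to 0.65, and its r with DCN fell from 0.51 to 0.08 without the 2 pigs farthest in DCN. TNMD ran from -0.05 with LUM to 0.62 with FMOD (rho = 0.59, and 0.69 without the 2 pigs farthest in FMOD).

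**Figure D5:**
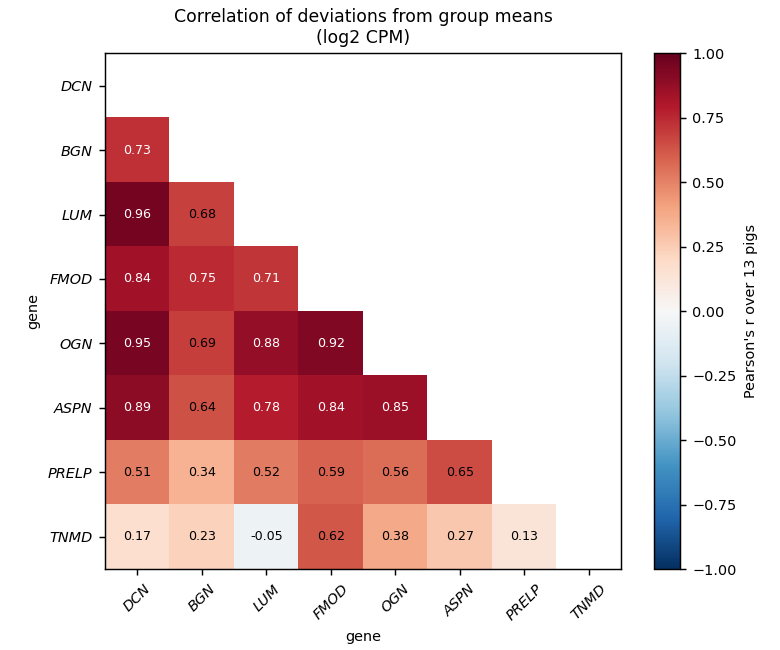
Pearson's r between 8 genes (both axes, colour from -1 to 1) over the 13 pigs, for log2 CPM as deviations from the group means. The 6 genes DCN, BGN, LUM, FMOD, OGN and ASPN had r from 0.64 to 0.96 among themselves, and TNMD had r from -0.05 to 0.62 with the others.

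Of 9807 other genes with a symbol, those whose deviations were most like DCN were COL1A2 (r = 0.95, rho = 0.87), ANGPTL1 (0.95, 0.85), TFPI2 (0.95, 0.94), ARMCX3 (0.94, 0.96) and CTSK (0.94, 0.94). Without the 2 pigs farthest in DCN these r were between 0.88 and 0.93. The genes most like the mean of the 8 SLRP genes were COL14A1 (r = 0.90, rho = 0.64), ADAMTS2 (0.90, 0.73), FNDC1 (0.90, 0.71), SFRP1 (0.89, 0.97) and ANGPTL2 (0.89, 0.78). The genes most like TNMD were CLCN3 (r = 0.86, rho = 0.55), AMER1 (0.85, 0.79), KANK1 (0.84, 0.75), SEPT6 (0.84, 0.60) and MGA (0.84, 0.72). For TNMD the r fell to between 0.61 and 0.68 without the 2 farthest pigs, so the likeness rests in part on those pigs.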

How the data were processed

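The authors isolated total RNA from longissimus lumborum muscle and made libraries with a kit that does not mark strand (TruSeq RNA v2). The indexed libraries were pooled and read for 101 cycles in 4 technical repetitions. They deposited raw read counts per Ensembl gene in a table for each breed, with reads aligned to Sscrofa10.2. The submitters' processing notes name FastQC, STAR, RSEM and DESeq2, and which of them made the counts is not given in the sources used here. Without strand, reads of overlapping or antisense genes cannot be told apart. The authors' tables of fold changes and p-values were not used, except their gene symbols and coordinates.

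Counts were tested in R 4.3.3 with edgeR 4.0.16 (filterByExpr by group, TMM, glmQLFit, glmQLFTest), within each breed for loin weight and over all 13 pigs for the comparisons between breeds and the difference of effects. SE is the log2 fold change divided by the square root of F. Correlations used log2 CPM with a prior count of 0.5. DESeq2 1.42.0 and other scalings, filters and samples were alternatives. The script was tested on simulated data: in Hampshire high against low, 142 of 193 genes changed 3-fold were called (12 false calls). In Pietrain high against low it was 125 of 190 (3 false calls). Between breeds it was 109 of 193 at low (2 false calls) and 131 of 198 at high loin weight (7 false calls). For the difference of the loin weight effect between breeds it was only 54 of 200 (3 false calls). The 15 pairs of pigs within groups all differed beyond counting noise (chi-square per degree of freedom at least 21.9).

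Of 25322 genes, 13168 had a symbol (7066 from the authors, the rest from a RefSeq table of Sscrofa11.1 used for names only), and 135 of 167 list symbols matched. 3 list symbols matched more than 1 identifier, and the one with the most counts was used. All 9 members were described, and from each list the genes with the smallest p in Hampshire or between breeds at high loin weight, or the highest mean CPM, were named. The members and lists were chosen with earlier results of these data known. Plots were made in Python 3.11.15 (matplotlib 3.10.9).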

Additional observations from a re-analysis of the deposited data

Results flagged for a closer look

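TNMD in Pietrain pigs with high loin weight was marked for a closer look because 1 pig stood far from the others. Pig 1 was at 3.54 CPM (49 reads) and pigs 2, 6 and 7 had no read, so the gap to the nearest pig was the whole range of the group, above Dixon's 95% critical value for 4 samples. The group of 4 was examined for 9 genes, and chance marks about 1 in 20 such groups. The other groups hold 3 pigs each and were not examined. The cause was not tested.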

How the results depend on the processing

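Of 378 refits of a member's log2 difference, 350 kept its direction and side of the threshold, 9 passed where the main fit had not, 6 lost the call and 13 changed sign, all 13 of them in differences that were not called. The 9 include TNMD between breeds at high loin weight without Pietrain high pig 1, which is not given as a test. Between breeds at low loin weight, DESeq2 called 1 SLRP gene where edgeR called 0, and leaving out 1 pig gave 0 to 1. For the difference of the loin weight effect between breeds, DESeq2 called 2 where edgeR called 0, and leaving out 1 pig gave 0 to 1. Leaving out 1 pig gave 3 to 5 calls in Hampshire against 4, 2 to 4 between breeds at high loin weight against 3, and 0 in Pietrain. The 4 arose without Pietrain high pig 1 and count TNMD, whose call there is not a test. Signs changed in Pietrain for BGN (-0.14 without low pig 8, within a range of -0.14 to 0.49 over pigs left out), LUM (-0.11 without high pig 6 and -0.056 without low pig 8, range -0.11 to 0.37) and OGN (-0.042, -0.11 and -0.13 without high pig 1, high pig 6 and low pig 8, range -0.13 to 0.25). Between breeds at low loin weight they changed for DCN (0.19, 0.066 and 0.12 without Hampshire pig 1, Pietrain pig 3 and Pietrain pig 5, range -0.18 to 0.19) and LUM (0.062 and 0.0089 without Hampshire pig 1 and Pietrain pig 5, range -0.29 to 0.062). PRELP's difference of effects changed to 0.051 without Hampshire high pig 8 and to 0.13 without Pietrain low pig 5 (range -0.63 to 0.13). The cause was not tested. In Hampshire, log2 differences fell with gene span over 9945 genes (Spearman's rho = -0.39). With this trend removed DCN, FMOD and OGN stayed called (adjusted p = 0.00588, 0.00516 and 0.0172, edgeR) and BGN did not (0.0534), while no count over the list is given, since only 6 of the 8 SLRP genes have a span. No paired analysis was possible because the loin weight groups of a breed share no pig numbers and the groups compared between breeds share fewer than 2. Depth limits CHAD, TNMD and PRELP, and breed cannot be told apart from the table it was deposited in.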
